A study of Mus musculus with 6 samples.

Results

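The T cell receptor beta locus of the mouse holds the gene segments from which each T cell assembles its receptor beta chain. Members were all genes whose symbol starts with Trbv, Trbd or Trbj, together with the constant genes Trbc1 and Trbc2, which gave 53 of 55487 annotated genes. They comprised 35 Trbv (variable), 2 Trbd (diversity), 14 Trbj (joining) and 2 Trbc genes. Of the variable segments, 22 were annotated as genes and 13 as pseudogenes, and 1 joining segment, Trbj2-6, was annotated as a pseudogene. On mm10 the locus lay on chromosome 6, between 40891229, the start of Trbv1, and 41558452, the end of Trbv31, which is the only variable segment on the minus strand and lies beyond Trbc2.

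Splenic naive CD4+ T cells of WT C57BL6/J mice were profiled by sequencing of polyA RNA. Mice treated with rapamycin, an inhibitor of the kinase mTOR, gave 3 libraries, and mice with no treatment gave the other 3. Age, sex, dose and duration of treatment are not given in the sources used here, nor is it said whether each library came from a separate mouse, so that each p-value sets a difference against the spread of the 3 libraries of a group, and that spread may be technical. The question was what mTOR inhibition does to these cells.

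During development in the thymus each T cell joins a variable, a diversity and a joining segment, and splicing links the joined exon to a constant exon. The variable segment encodes most of the domain that meets the peptide and the presenting molecule, and its end, from a conserved cysteine codon onward, starts the hypervariable loop at the junction. A mature T cell keeps its rearrangement, so the spread of transcripts over variable segments in a bulk sample reflects which cells are present and how much receptor RNA each holds, which cannot be told apart here.

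The variable segments on which the comparison turned are shown by the last 60 bases of their annotated transcripts (GENCODE vM21, GRCm38, plus strand of chromosome 6). Capitals mark the stretch from the conserved cysteine codon to the annotated end. They are shown because this end of a variable segment borders the junction. Some of these stretches, such as those of Trbv3 and Trbv15, are nearly the same.

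Trbv3: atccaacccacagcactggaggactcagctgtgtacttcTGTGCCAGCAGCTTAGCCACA

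Trbv15: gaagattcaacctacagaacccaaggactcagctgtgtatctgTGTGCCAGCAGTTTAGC

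Trbv16: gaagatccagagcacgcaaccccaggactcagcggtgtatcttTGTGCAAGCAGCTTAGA

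Trbv1: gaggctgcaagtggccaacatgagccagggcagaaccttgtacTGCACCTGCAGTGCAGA

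Trbv13-2: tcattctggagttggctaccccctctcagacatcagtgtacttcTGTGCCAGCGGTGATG

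Trbv19: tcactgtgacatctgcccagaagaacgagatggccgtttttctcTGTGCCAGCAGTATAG

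These stretches lay at chr6:41048769-41048828 for Trbv3, chr6:41141599-41141658 for Trbv15, chr6:41152171-41152230 for Trbv16, chr6:40891826-40891885 for Trbv1, chr6:41121773-41121832 for Trbv13-2 and chr6:41178989-41179048 for Trbv19. Over the last 280 bases, aligned without gaps, Trbv15 and Trbv16 were 72.1% identical, Trbv3 was 60.0% identical to Trbv15 and 57.1% to Trbv16, and Trbv1 was 30.7% identical to Trbv3. No 50-base window of the transcripts of Trbv1, Trbv3, Trbv15, Trbv16 or Trbv19 occurred in an annotated transcript of another gene. For Trbv13-2 the share of such windows was 0.344%, all with Trbv13-3.

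Diversity and joining segments gave no values. All 16 were listed at 0 in every library with an effective length of 0. Their deposited lengths were 12 to 53 bases, while the fragments, by the measure given with the library totals, were several times as long. No joining segment usage could be measured, and the 0 said nothing of their presence in the RNA. Both diversity segments and 1 joining segment of each cluster show how short they are.

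Trbd1: gggacagggggc

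Trbd2: gggactgggggggc

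Trbj1-1: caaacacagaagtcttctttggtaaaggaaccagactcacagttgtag

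Trbj2-7: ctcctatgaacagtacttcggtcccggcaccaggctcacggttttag

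They lay at chr6:41533201-41533212 (Trbd1), chr6:41542163-41542176 (Trbd2), chr6:41533864-41533911 (Trbj1-1) and chr6:41543810-41543856 (Trbj2-7), on the plus strand.

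Of the 35 variable segments, 24 had a count in at least 1 library. They were all 22 annotated as genes and the pseudogenes Trbv12-3, with 1 count in a single library, and Trbv24, with 8, 3 and 11 counts in rapamycin libraries and 13, 12 and 5 in untreated libraries. The other 11 pseudogenes had 0 counts in every library. A count of 0 allows a share of all Trbv counts of up to 0.187% in the shallowest library and 0.117% in the deepest, for counting error only. Together with Trbc1 and Trbc2, 22 members passed the filter on low counts, 20 of them variable segments. Trbv12-3, Trbv21, Trbv23 and Trbv30 had counts but did not pass it.

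The total of all Trbv counts was 1617, 1605 and 1613 in rapamycin libraries, and 2575, 2490 and 2174 in untreated libraries. The library totals were 8757273 to 9315359 counts with rapamycin and 9712672 to 11393299 without. Members made up 0.113% to 0.115% of all counts with rapamycin and 0.146% to 0.148% without. Fragments were longer in rapamycin libraries, by the deposited lengths: the median difference between length and effective length, over 7464 genes of over 3000 bases, was 255, 250.6 and 256.5 bases, against 239.8, 239.2 and 239.8 bases in untreated libraries. Variable segments are short, and their effective lengths were smaller with rapamycin by between 0.06 and 0.15 on the log2 scale for those tested. Fold changes across all genes also followed gene length, so length-corrected values are given beside most of those of the library scale.

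In TPM, which scales each gene for its effective length and each library to one total, the segments differed widely. Trbv13-2 was the most abundant in both groups, at 315 ± 31.4 TPM with rapamycin and 228 ± 17.5 TPM without (mean ± SD, n = 3 libraries here and below). In rapamycin libraries it was followed by Trbv13-3 (171 ± 9.51 TPM), Trbv1 (149 ± 22.9), Trbv31 (142 ± 19.1) and Trbv13-1 (142 ± 20.5), whose ranges overlapped from each to the next. In untreated libraries it was followed by Trbv1 (196 ± 8.57 TPM), whose range did not meet that of Trbv13-3 (163 ± 12.3), and then by Trbv3 (149 ± 11.8), which overlapped Trbv13-3. Trbv3 held the twelfth place with rapamycin and the fourth without, in ranges that overlapped those of its neighbours in the order. The lowest of the segments tested were Trbv24 and Trbv12-1, at 11.4 ± 6.61 and 16.9 ± 4.64 TPM with rapamycin and 10.7 ± 4.17 and 21.5 ± 5.10 TPM without.

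**Figure D1:**
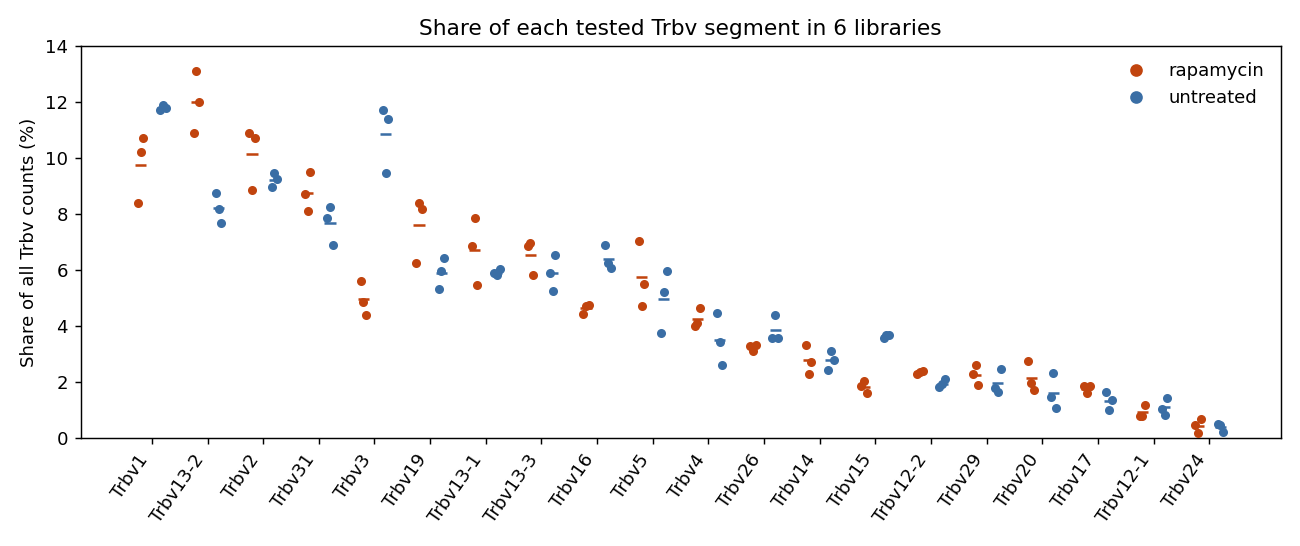
Share of all Trbv counts (%, y axis) of each of the 20 tested variable segments, ordered by mean share over the 6 libraries; each point is 1 library, bars are means, with rapamycin left of untreated. Trbv3, Trbv15, Trbv16 and Trbv1 lie lower in all 3 rapamycin libraries and Trbv13-2 lies higher.

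With rapamycin, the composition of the variable segments differed. Trbv3, Trbv15, Trbv16 and Trbv1 took a smaller part of all Trbv counts, and Trbv13-2 a larger one. Shares of the same total are not independent, since a fall in some raises the others. Scaled to the whole library, neither Trbv13-2 (log2 fold change 0.22, edgeR adjusted p = 0.0744) nor Trbv19 (0.05, adjusted p = 0.803) was called higher. Both were called higher with the length correction. Trbv3 held 4.96% ± 0.619 of Trbv counts with rapamycin against 10.9% ± 1.21 without, and Trbv13-2 held 12.0% ± 1.13 with rapamycin against 8.20% ± 0.528 without. The 4 segments that were lower summed to 21.2% ± 0.772 in rapamycin libraries and 32.7% ± 1.32 in untreated libraries, a description only, since they were chosen by their fall. Shares were tested with edgeR's quasi-likelihood test with the library size set to the Trbv total, with Benjamini-Hochberg adjustment over 11950 genes. On that scale 4 of the 20 tested segments were lower and 2 higher at an adjusted p under 0.05. Of all genes tested, 4.17% were lower and 55.8% higher on it, where the median log2 fold change of all genes was 0.311. Division by the Trbv total shifts all other genes, so these percentages describe the scale and are no baseline for the segments. Since most genes were called on it, adjustment over all genes raises p-values near the threshold only a little. With offsets from the deposited effective lengths added, 3 segments were lower and 1 higher, against 4.16% and 33.8% of all genes, and Trbv1 (−0.28, adjusted p = 0.0955) and Trbv19 (0.31, adjusted p = 0.147) lost their calls.

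Trbv3, a single-member family, had the largest change of share. It took 5.63%, 4.86% and 4.40% of Trbv counts in rapamycin libraries, against 11.7%, 9.48% and 11.4% in untreated libraries. Every rapamycin library lay below every untreated one, and the nearest of them, rapamycin replicate 1 and untreated replicate 2, had 95% Wilson intervals of 4.61% to 6.86% and 8.39% to 10.7%, which did not meet. The log2 change of share was −1.13 ± 0.13 (SE; adjusted p = 4.59e-17, edgeR). Its counts were 91, 78 and 71 with rapamycin and 302, 236 and 247 without.

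Trbv15 took 1.86%, 2.06% and 1.61% of Trbv counts with rapamycin, and 3.57%, 3.69% and 3.68% without. The groups did not overlap, and the nearest libraries, rapamycin replicate 2 and untreated replicate 1, had Wilson intervals of 1.47% to 2.87% and 2.92% to 4.36%. Its log2 change of share was −0.98 ± 0.21 (edgeR adjusted p = 1.24e-05). Trbv16, its neighbour on the chromosome, took 4.45%, 4.74% and 4.77% with rapamycin and 6.91%, 6.27% and 6.07% without. These groups too were apart, though the Wilson intervals of the nearest, 3.84% to 5.93% in rapamycin replicate 3 and 5.14% to 7.16% in untreated replicate 3, met, with a log2 change of −0.47 ± 0.15 (edgeR adjusted p = 0.00378).

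Trbv1, the first segment of the locus, took 8.41%, 10.2% and 10.7% of Trbv counts with rapamycin, against 11.7%, 11.9% and 11.8% without. All rapamycin libraries were lower, replicate 1 the most so, and the Wilson intervals of rapamycin replicate 3 (9.31% to 12.3%) and untreated replicate 1 (10.5% to 13.0%) met. The log2 change of share was −0.27 ± 0.11 (edgeR adjusted p = 0.0236), which was lost without rapamycin replicate 1 (−0.18, adjusted p = 0.21), without untreated replicate 1 (−0.28, adjusted p = 0.0508) and with DESeq2 (−0.27, adjusted p = 0.0704).

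Trbv13-2, one of the segments used by invariant natural killer T cells as well as by conventional T cells, took 10.9%, 13.1% and 12.0% of Trbv counts with rapamycin, against 8.74%, 8.19% and 7.68% without. Every rapamycin library was above every untreated one, though the Wilson intervals of the nearest, 9.46% to 12.5% in rapamycin replicate 1 and 7.71% to 9.89% in untreated replicate 1, met. The log2 change of share was 0.55 ± 0.11 (edgeR adjusted p = 4.49e-06). The other members of its family were not called, with log2 changes of share of 0.18 ± 0.14 for Trbv13-1 (adjusted p = 0.253) and 0.16 ± 0.14 for Trbv13-3 (adjusted p = 0.345). The family together took 25.3% ± 2.41 with rapamycin and 20.0% ± 0.661 without, with no overlap (exact two-sided permutation p = 0.1, the smallest that 3 against 3 libraries can give). Over their last 280 bases Trbv13-2 and Trbv13-3 were 91.4% identical, and Trbv13-1 was 88.2% identical to Trbv13-2.

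Trbv19 was also called higher, but its groups overlapped. It took 6.25%, 8.41% and 8.18% with rapamycin and 5.32%, 5.98% and 6.44% without, where rapamycin replicate 1 lay below untreated replicate 3. The log2 change of share was 0.37 ± 0.14 (edgeR adjusted p = 0.0133), and it was lost under 6 of 15 alternatives, with adjusted p from 0.00234 to 0.147 over them.

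The other 14 tested segments were not called on this scale, with log2 changes of share between −0.25 and 0.40, SE between 0.12 and 0.50 and adjusted p of at least 0.166 by edgeR. Among them were the large segments Trbv2, at 10.2% ± 1.15 of Trbv counts with rapamycin and 9.23% ± 0.254 without, and Trbv31, at 8.77% ± 0.694 with rapamycin and 7.69% ± 0.708 without. Of the smaller ones, Trbv14 took 2.79% ± 0.520 with rapamycin and 2.80% ± 0.343 without, Trbv29 took 2.28% ± 0.348 with rapamycin and 1.97% ± 0.449 without, and Trbv20 took 2.17% ± 0.546 with rapamycin and 1.64% ± 0.628 without. Trbv17, at 1.78% ± 0.137 with rapamycin and 1.35% ± 0.334 without, overlapped between groups, as did these 5 others. Trbv26 took 3.28%, 3.12% and 3.35% with rapamycin and 3.57%, 4.42% and 3.59% without, apart in rank but not called (−0.25 ± 0.18, adjusted p = 0.233). Trbv12-2 took 2.29%, 2.37% and 2.42% with rapamycin and 1.83%, 1.93% and 2.12% without, again apart in rank and not called (0.27 ± 0.24, adjusted p = 0.323). In all, 5 of the 20 shares were lower and 2 higher with no overlap between groups, where 5.13% and 57.5% of all genes tested were so when divided by the Trbv total. Those percentages too are shifted by the division and are no baseline for the segments.

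Trbv4 and Trbv5 could not be read with the same certainty. They lie within the noncoding gene 5830405F06Rik, whose transcripts hold 72.1% of the 50-base windows of Trbv4 and 77.4% of those of Trbv5, and their deposited counts were not whole, as counts divided between genes are. Trbv4 took 4.26% ± 0.340 of Trbv counts with rapamycin and 3.51% ± 0.924 without, and Trbv5 took 5.77% ± 1.18 with rapamycin and 4.99% ± 1.12 without. Both pairs of groups overlapped.

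**Figure D2:**
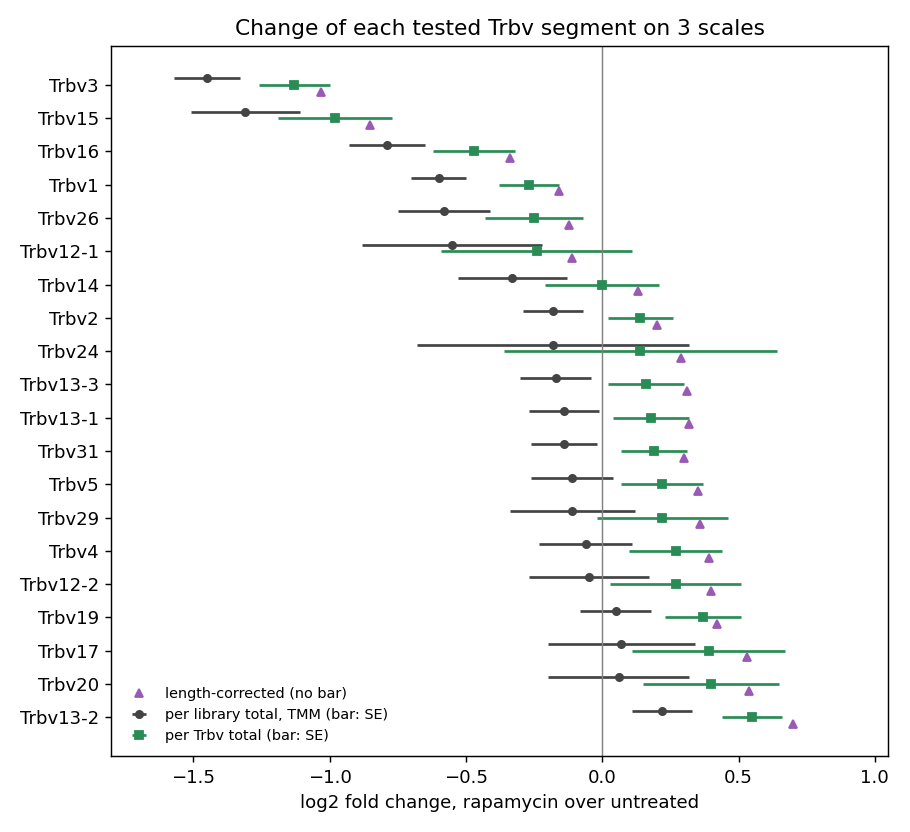
Log2 fold change, rapamycin over untreated (x axis), of each tested variable segment scaled to the library with TMM factors (circles, bars SE), to the Trbv total (squares, bars SE) and with the length correction (triangles, no bars). Trbv3 and Trbv15 lie lowest on all 3 scales and Trbv13-2 highest, while the zero line falls at a different place in the order on each.

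Scaled to the whole library, Trbv3 and Trbv15 again had the largest falls, and the number of segments called changed with the scale. With TMM factors, which balance the libraries over all genes, 5 of the 20 tested variable segments were lower and 0 higher, against 23.3% lower and 24.1% higher of all genes tested, so that the count of lower ones was near that of all genes. Trbv3 had 9.92, 8.78 and 8.21 CPM (counts scaled to a common library size) with rapamycin and 26.1, 22.4 and 25.1 CPM without, a log2 fold change of −1.45 ± 0.12 (edgeR adjusted p = 4.84e-16). Trbv15 had 3.27, 3.72 and 3.01 CPM with rapamycin and 7.96, 8.73 and 8.12 CPM without, a log2 fold change of −1.31 ± 0.20 (edgeR adjusted p = 1.26e-07). In both segments every rapamycin library was below every untreated one.

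Trbv16 (−0.79 ± 0.14, edgeR adjusted p = 2.24e-06), Trbv1 (−0.60 ± 0.10, adjusted p = 1.94e-06) and Trbv26 (−0.58 ± 0.17, adjusted p = 0.00459) were the other segments called, of which Trbv26 was lost under 5 of 18 alternatives. Besides the length correction, these were leaving out untreated replicate 2 (−0.44, adjusted p = 0.0644), the effective-length offsets (−0.47, adjusted p = 0.0815) and limma on log2(TPM + 1) or log2(TPM + 0.1) (−0.34, adjusted p = 0.0544 and 0.0548). Trbv13-2 had 19.2, 23.8 and 22.4 CPM with rapamycin and 19.5, 19.4 and 17.0 CPM without, which overlapped, and a log2 fold change of 0.22 ± 0.11 (edgeR adjusted p = 0.0744), which was called under 5 of 18 alternatives. Among them were leaving out rapamycin replicate 1 (0.31, adjusted p = 0.0236) and limma on log2(TPM + 1) or log2(TPM + 0.1) (0.46, adjusted p = 0.00493 and 0.005). The median log2 fold change of the 20 segments was −0.15, beside −0.01 for all genes tested. In CPM, 5 of them were lower and 0 higher with no overlap between groups, and 26.8% and 26.9% of all genes were.

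With the length correction 3 segments were lower and 4 higher, against 18.3% lower and 20.2% higher of all genes tested, and the median of the 20 was 0.30. Trbv3 stood at −1.03 (edgeR adjusted p = 2.28e-10), Trbv15 at −0.85 (adjusted p = 0.000438) and Trbv16 at −0.34 (adjusted p = 0.0416). Trbv1 (−0.16, adjusted p = 0.224) and Trbv26 (−0.12, adjusted p = 0.633) were no longer called. Trbv13-2 rose by 0.70 (adjusted p = 1.58e-07), Trbv19 by 0.42 (adjusted p = 0.00809), Trbv13-1 by 0.32 (adjusted p = 0.0476) and Trbv31 by 0.30 (adjusted p = 0.036). With offsets from the deposited effective lengths 4 segments were lower and 1, Trbv13-2 (0.35, adjusted p = 0.0473), higher, against 15.1% and 16.2% of all genes. The median of the 20 with these offsets was −0.04. Over the 18 alternatives run on the library scale, Trbv3 ranged from −1.53 to −1.03 and Trbv15 from −1.39 to −0.85, and each was called in all 18.

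The amount of Trbv RNA as a whole had no direction that held across scales. The Trbv total was 176, 181 and 187 CPM with rapamycin and 223, 236 and 221 CPM without, which did not overlap (exact two-sided permutation p = 0.1). In TPM it was 1783, 1782 and 1868 with rapamycin and 1859, 1983 and 1834 without, which overlapped (exact two-sided permutation p = 0.3). The mean log2 difference was −0.323 in scaled counts, −0.062 in TPM and 0.117 with the length correction.

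In counts, the evenness of use over segments differed between groups by less than the spread between libraries. The Shannon index of Trbv counts was 2.822, 2.786 and 2.789 with rapamycin and 2.793, 2.814 and 2.790 without. Its exponential, the number of equally used segments that would give that index, was 16.4 ± 0.333 with rapamycin and 16.4 ± 0.217 without (exact two-sided permutation p = 1.0). The largest single share was 12.0% ± 1.10 with rapamycin and 11.8% ± 0.0819 without, and different segments held it. With rapamycin it was Trbv2 in replicate 1, with 177 counts beside 176 of Trbv13-2, and Trbv13-2 in the other libraries. Without treatment it was Trbv1, level with Trbv3 at 302 counts in replicate 1. Computed from TPM the index fell by 0.045 with rapamycin, with no overlap between groups (exact two-sided permutation p = 0.1). Pseudogenes took 0.475% ± 0.217 of Trbv counts with rapamycin and 0.406% ± 0.153 without, which overlapped.

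**Figure D3:**
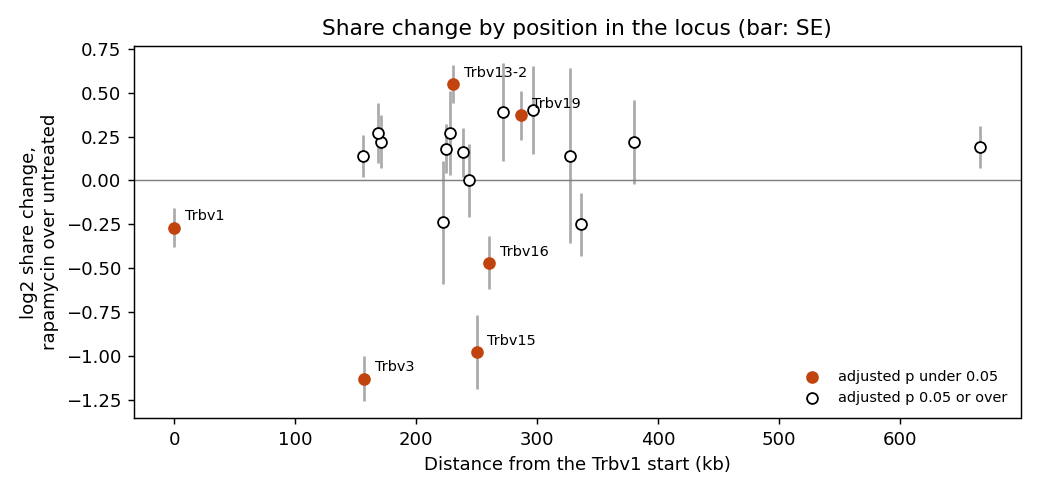
Log2 change of share, rapamycin over untreated (y axis, bars SE), of the 20 tested variable segments against the distance of each from the start of Trbv1 (x axis, kb). Filled points passed an adjusted p of 0.05; the lower and the higher ones lie among segments that were not called.

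Segments that moved one way did not lie in 1 block of the locus. Trbv1 starts the locus, Trbv3 lies 157.1 kb from its start, and Trbv15 and Trbv16 lie at 250.0 and 260.5 kb. Trbv13-2 lies between Trbv3 and Trbv15, at 230.2 kb, and Trbv19 at 287.1 kb. Trbv2, whose start is at 156.1 kb beside Trbv3, had a log2 change of share of 0.14 ± 0.12 (edgeR adjusted p = 0.293), and Trbv14, at 243.9 kb beside Trbv15, had 0.00 ± 0.21 (adjusted p = 0.998). Trbv31, beyond the constant genes at 666.5 kb, had 0.19 ± 0.12 (adjusted p = 0.187).

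Both constant genes were lower on the library scale. Trbc1 had 360, 379 and 368 CPM with rapamycin and 486, 496 and 485 CPM without, a log2 fold change of −0.41 ± 0.03 (edgeR adjusted p = 1.99e-21). Trbc2 had 610, 598 and 610 CPM with rapamycin and 738, 724 and 733 CPM without, a log2 fold change of −0.27 ± 0.02 (edgeR adjusted p = 2.13e-17). In both genes the groups were far apart for their spread. With the length correction Trbc1 stood at −0.08 (edgeR adjusted p = 0.00733) and Trbc2 turned to 0.06 (adjusted p = 0.0198), so that the direction of Trbc2 depended on it. With the effective-length offsets both stayed lower, Trbc1 at −0.36 (edgeR adjusted p = 1.01e-05) and Trbc2 at −0.25 (adjusted p = 3.07e-05). In TPM Trbc1 was 1140 ± 28.3 with rapamycin and 1352 ± 15.9 without, and Trbc2 was 1939 ± 35.1 with rapamycin and 2132 ± 19.6 without.

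The 2 constant genes encode nearly the same protein and share reads. Over 518 coding bases they differed at 23, which is 95.6% identity. Their first exon, of 375 bases, held 1 of these, while the 143 coding bases after it held 22. The longest run of identical bases was 259. Of the 50-base windows of the Trbc1 transcript 41.1% occurred in Trbc2, and of those of Trbc2 44.0% in Trbc1. The coding bases after the first exon, which set the genes apart, are shown with each differing base in capitals.

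Trbc1: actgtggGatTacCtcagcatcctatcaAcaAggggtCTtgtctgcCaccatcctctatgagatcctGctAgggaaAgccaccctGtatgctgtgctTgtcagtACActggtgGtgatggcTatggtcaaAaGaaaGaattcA

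Trbc2: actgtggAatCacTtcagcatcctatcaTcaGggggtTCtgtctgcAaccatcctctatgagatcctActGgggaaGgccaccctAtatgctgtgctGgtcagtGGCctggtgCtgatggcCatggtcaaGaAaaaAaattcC

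These bases come from 3 exons each, spanning chr6:41539114-41539662 for Trbc1 and chr6:41547610-41548178 for Trbc2 on the plus strand. Reads that lie wholly in an identical run can be divided between the genes only by estimate, so the level of each is uncertain to that extent.

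The ratio of Trbc1 to Trbc2 was lower with rapamycin. It was 0.591, 0.634 and 0.604 in counts in rapamycin libraries, against 0.658, 0.685 and 0.662 in untreated libraries. Every rapamycin library lay below every untreated one (exact two-sided permutation p = 0.1, the smallest that 3 against 3 can give). The difference of the log2 ratio was −0.134 in counts, −0.109 in TPM and −0.140 with the length correction. In contrast the ratio of the Trbv total to the Trbc total was 0.182, 0.185 and 0.191 in counts with rapamycin and 0.182, 0.194 and 0.181 without, which overlapped (exact two-sided permutation p = 1.0). In TPM that ratio was 0.588 ± 0.0114 with rapamycin and 0.543 ± 0.0232 without, with no overlap. The log2 difference of this ratio was 0.002 in counts, 0.116 in TPM and 0.112 with the length correction.

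**Figure D4:**
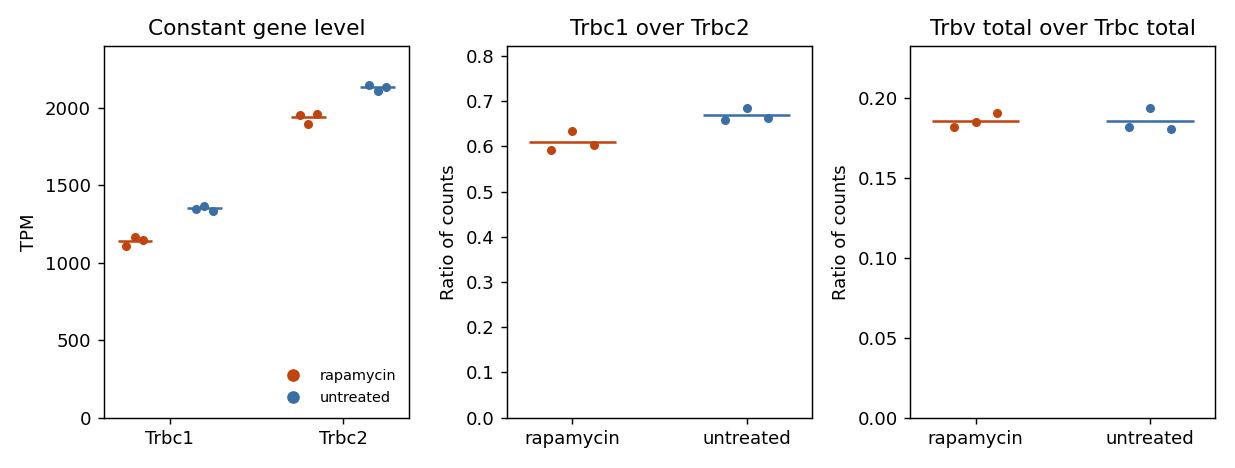
Left, TPM of Trbc1 and Trbc2; middle, ratio of Trbc1 to Trbc2 counts; right, ratio of the Trbv total to the Trbc total, in counts; points are libraries and bars are means, with rapamycin left of untreated. The Trbc1 to Trbc2 ratio is lower in all 3 rapamycin libraries, and the ratio of Trbv to Trbc overlaps between groups.

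Of 6 listed partners of the beta chain in the receptor complex, 5 were tested on the library scale. Of these 4 were lower and 0 higher, where 23.3% and 24.1% of all genes tested were, with a median log2 fold change of −0.32. With the length correction 3 were lower and 1 higher, where 18.3% and 20.2% of all genes were, with a median of −0.09. Trac, the constant gene of the alpha chain, had 387, 396 and 388 CPM with rapamycin and 676, 687 and 668 CPM without, a log2 fold change of −0.80 ± 0.02 (length-corrected −0.52). Cd3d changed by −0.34 (length-corrected −0.22), Cd3g by −0.32 (length-corrected −0.09) and Cd247, the zeta chain, by −0.16 (length-corrected −0.05, not called). Cd3e, the member not called on the library scale, had −0.04 (adjusted p = 0.258) and was called higher with the length correction (0.11, adjusted p = 0.000313). Ptcra, the partner of the beta chain in immature thymocytes, was at 0 in every library.

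Of 16 listed genes of V(D)J recombination and its repair steps, 15 were tested, with 4 higher and 3 lower and a median log2 fold change of 0.03. These counts were near the 24.1% higher and 23.3% lower of all genes tested. With the length correction 3 were higher and 3 lower, where 20.2% and 18.3% of all genes were. Dntt, the polymerase that adds untemplated bases at junctions, had 8.64 ± 1.71 CPM with rapamycin and 16.8 ± 0.931 CPM without, a log2 fold change of −0.95 ± 0.14 (edgeR adjusted p = 2.59e-08, length-corrected −0.91). The repair kinase genes Prkdc and Atm rose by 0.53 and 0.39, and were not called with the length correction (0.09 and 0.05). Hmgb1, a DNA-bending protein gene, rose by 0.10 (length-corrected 0.28). Rag1 did not pass the filter, and Rag2 had 1.76 ± 0.335 CPM with rapamycin and 1.73 ± 0.359 CPM without.

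Of 28 other annotated genes within the locus, trypsinogen genes among them, 26 had 0 counts in every library. The only one tested was 5830405F06Rik, at 3.41 ± 0.912 CPM with rapamycin and 2.74 ± 0.580 CPM without (0.32 ± 0.28, edgeR adjusted p = 0.37). Ephb6, the nearest gene tested outside the locus, had 62.7 ± 5.64 CPM with rapamycin and 61.2 ± 3.93 CPM without. Among constant genes of the other receptor type, Trdc alone was tested and was not called (0.29 ± 0.14, edgeR adjusted p = 0.0925). Trgc1, Trgc2, Trgc3 and Trgc4 were not found by symbol, so nothing is known of their level here.

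Markers of several cell types were counted on the library scale, where 24.1% of all genes tested were higher and 23.3% lower. All 8 naive CD4 T cell markers were tested, 5 were higher and 2 lower, and their summed level was 6920 to 7020 CPM with rapamycin and 5910 to 6000 CPM without. Both CD8 T cell markers, Cd8a and Cd8b1, were higher, with a sum of 87.8 to 90.9 CPM with rapamycin against 19.1 to 20.4 CPM without. Of 7 memory or effector T cell markers 5 were tested and all 5 were lower, at 76.4 to 78.4 CPM with rapamycin against 116 to 127 CPM without. Most of that sum was Itgb1, at 56.8 ± 2.09 CPM with rapamycin and 66.2 ± 2.25 CPM without. Of 5 natural killer T cell markers 3 were tested and all 3 were lower, at 15.4 to 17.0 CPM with rapamycin against 22.5 to 23.3 CPM without. Most of that sum was Slamf1, at 14.4 ± 0.934 CPM with rapamycin and 18.6 ± 0.406 CPM without. The other 2 were low: Klrb1c had 0.749 and 2.35 CPM, and Cd160 had 0.894 and 1.82 CPM, with and without rapamycin. Trav11, the variable segment of the invariant alpha chain of natural killer T cells, was at 0 in all libraries. Regulatory T cell markers summed to 43.4 to 48.5 CPM with rapamycin and 43.6 to 46.1 CPM without (2 of 5 higher, 1 lower), which overlapped. Most of that sum was Tnfrsf18, the lower one, at 27.1 ± 0.606 CPM with rapamycin and 32.8 ± 1.71 CPM without. The higher ones were Ikzf2, at 7.55 and 4.45 CPM, and Ctla4, at 6.36 and 3.63 CPM, with and without rapamycin. Plasma cell markers summed to 38.4 to 41.0 CPM with rapamycin and 77.5 to 80.3 CPM without (4 of 5 lower, 0 higher). Most of that sum was Xbp1, at 33.8 ± 1.61 CPM with rapamycin and 42.0 ± 1.11 CPM without. Larger falls were those of Ighg2b, at 0.380 and 17.8 CPM, and Jchain, at 0.787 and 11.6 CPM, with and without rapamycin. Of the NK cell markers tested, 1 was higher and 2 lower. Of 6 gamma delta T cell markers only 2, Trdc and Blk, were tested, and 0 were called. Trgc1, Trgc2 and Trgc4 of that list were not found by symbol, so they have no values. Myeloid markers summed to 13.0 to 14.7 CPM with rapamycin and 42.6 to 48.6 CPM without (6 of 6 lower). B cell markers summed to 945 to 985 CPM with rapamycin and 1220 to 1260 CPM without (3 of 6 lower, 0 higher). Most of that sum was Ighm, at 529 ± 10 CPM with rapamycin and 793 ± 11.5 CPM without. With the length correction 20.2% of all genes were higher and 18.3% lower. On it 2 B cell and 2 natural killer T cell markers were lower, and 0 higher. Of NK cell markers 2 were higher and 2 lower, and of regulatory T cell markers 2 and 0. Counts for the other types above did not change. All these cell types use beta segments in their own proportions or not at all, and their part in the segment shares was not tested.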

How the data were processed

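Per the file headers, each deposited table covers 55487 genes of 1 library, with RSEM's expected count, TPM, FPKM and both the length and the effective length. Per the submitters' processing notes the authors used STAR and RSEM on mm10; versions and annotation are not given in the sources used here. Directional libraries were made from polyA RNA, per the labels' protocols. The authors' expected counts divide shared reads between genes by estimate, and the authors' TPM values are scaled for effective length. The deposited FPKM values were not used. Names and coordinates are those of GENCODE vM21 (GRCm38, which is mm10), where 55227 identifiers matched; the 260 others held 0.0131% of counts or less in every library.

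The members, lists and tests were chosen with earlier results of these data known. Expected counts were rounded. edgeR's filterByExpr kept 11950 genes; TMM factors and edgeR's quasi-likelihood test (robust, group only, Benjamini-Hochberg, threshold 0.05) gave fold changes, with the SE taken from the fold change and the F statistic. Shares were tested in a fit of the same kind with the library size set to the Trbv total and no TMM factors. The length correction used a spline of 5 degrees of freedom per library on log2 gene length, as offsets. Single values per library were set against each other by exact permutation, two-sided. Variable segments and constant genes tested were named in full where they passed the threshold or were among the 10 largest by share. Alternatives were other scaling factors and filters, limma-voom and DESeq2, limma on TPM (log2, pseudocount 1 or 0.1), and leaving out each library. Same-numbered libraries of the groups did not deviate together (correlations −0.093, 0.032 and −0.080), so the fits were unpaired. The edgeR fits on the library scale and on the Trbv total were tested on data simulated with means and dispersions from these libraries. The length correction, the effective-length offsets and the permutation comparisons were not tested in this way. Versions were DESeq2 1.42.0, edgeR 4.0.16 and limma 3.58.1 in R 4.3.3, and scipy 1.17.1 and matplotlib 3.10.9 in Python 3.11.15. Sequences came from the GENCODE transcripts. Intervals and floors, the latter 3 counts, cover counting error only.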

Additional observations from a re-analysis of the deposited data

How the results depend on the processing

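The count of members called, 7 on the library scale (0 higher and 7 lower), lay between 6 and 9 under all alternatives run, but with the length correction it held 5 higher and 4 lower, where 20.2% and 18.3% of all genes were called, against 24.1% and 23.3% on the library scale. The count of variable segments called on the Trbv total, 6, lay between 4 (DESeq2, and the effective-length offsets added after seeing the data) and 7. Leaving out 1 library gave 6 to 8 and 5 to 7. Of 12146 to 12233 genes then tested, 2579 to 2698 were higher and 2486 to 2562 lower on the library scale. On the Trbv total 6021 to 6633 were higher and 380 to 549 lower, numbers shifted by the division. The number of shares with no overlap, 7, became 8 to 12 when 1 library was left out, the most without rapamycin replicate 2 (12). Leaving out a library can only keep or raise this number, so the rise does not show how stable it is. The total Trbv log2 difference of −0.323 moved to −0.062 in TPM and to 0.117 with the length correction, and lay between −0.344 and −0.292 without single libraries. The Trbv to Trbc difference of 0.002 moved to 0.116 in TPM and 0.112 with the length correction, and lay between −0.018 and 0.032 without single libraries. The Shannon index difference of 0.0 moved to −0.045 in TPM. For these moves the cause was not tested. The Trbc1 to Trbc2 difference lay between −0.162 and −0.112 without single libraries. Trbc2 turned to 0.06 with the length correction and stood at −0.25 with the effective-length offsets. Trbv19 on the library scale (0.05, not called) lay between −0.04 and 0.19 without single libraries, turning to −0.04 without untreated replicate 1 and to −0.03 without rapamycin replicate 2 or 3.

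With the replicate number as a block, 7 members were called on the library scale. Of all 11950 genes tested, 2850 were higher and 2743 lower on it. On the Trbv total 6 segment shares were called, where 6567 of all genes were higher and 483 lower, numbers shifted by the division. The total Trbv difference was −0.323 and the Trbc1 to Trbc2 difference −0.134. The block changed no count by over 1.5 times. The labels do not say that the numbers pair the libraries. The ratio of the 2 joining clusters, and its alternatives, could not be run because every joining segment was at 0. Depth limits single segments: at about 1600 Trbv counts in a rapamycin library, segments under 1% of the total rest on few reads.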
